A study of Arabidopsis thaliana with 4 samples.

Results

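HIS1-3 (AT2G18050) encodes histone H1-3, a linker histone of Arabidopsis thaliana. It was described here through its single-gene probe set, 1 of 13513 probe sets paired with 1 gene on an array of 22746. The gene was chosen by its large difference in signal between the same T0 and T24 arrays, so its own change is given as a description, without a test. The arrays measured RNA from immature inflorescences of the primary bolts of 5-week-old plants of ecotype Ler-0, the only genotype used. All were cut 11 h into a light period of 16 h, and 10 inflorescences from as many plants were pooled for each time point. The group T0 (2 arrays) was frozen at harvest. The group T24 (2 arrays) was kept 24 h in darkness at 21 °C on wet paper in a closed black box. Cutting, darkness, the closed wet box and the passing of a day and night came together in T24, and no attached or light-held inflorescences were measured, so their effects cannot be told apart. The labels call the arrays biological replicates but do not say whether each had its own pool of plants.

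Linker histones bind where DNA enters and leaves the nucleosome, on the outside of the core particle built from histones H2A, H2B, H3 and H4. They help to hold nucleosomes in a compact array. Plants have main linker histones present in most cells and a smaller, divergent variant with a short tail, of which HIS1-3 is the Arabidopsis member. HIS1-3 is known for its induction by drought, abscisic acid and low light, and under favourable growth it is known mainly from guard cells.

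HIS1-3 signal was low and nearly identical on both arrays before the dark period, and high and nearly identical on both arrays after it. On the log2 scale of the deposited values, the T0 arrays read 4.35 (replicate 1) and 4.30 (replicate 2). The T24 arrays read 10.90 (replicate 1) and 10.97 (replicate 2). Both T24 arrays therefore lay far above both T0 arrays, with no overlap between the groups. Groups that do not overlap were common on these arrays and were found for 57.4% of all probe sets.

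The T0 mean of HIS1-3 was 4.33 ± 0.04 and the T24 mean 10.93 ± 0.05 (SD, n = 2 each), a difference of 6.61 on the log2 scale, or 97.5-fold higher at T24. The 4 possible differences between a T24 array and a T0 array ran from 6.54 to 6.67, which are 93.4-fold and 102-fold. No single array decided the size of the difference: it was between 6.57 and 6.64 when 1 array was left out. Signals under 5, such as that of HIS1-3 at T0, are close to the floor of this kind of measurement, where differences are compressed, so the fold is approximate. In RNA from whole inflorescences, more cells with the transcript and more transcript per cell cannot be told apart.

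HIS1-3 ranked number 5 by rise among the 13513 single-gene probe sets, and number 5 by size of change in either direction. Its rise exceeded that of 99.963% of them. Among all 22746 probe sets, named or not, it ranked number 6, and among the 1551 whose gene carries a symbol it ranked number 2. The rank was more open to single arrays than the change: it was 4 without T24 replicate 1, 8 without T24 replicate 2, 5 without T0 replicate 1 and 6 without T0 replicate 2.

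The 4 single-gene probe sets ranked above HIS1-3 were those of PAP85, AT1G12010, AT2G05540 and AT5G39520. PAP85, a vicilin-like seed storage protein gene, read 3.27 and 4.32 at T0 and 12.36 and 11.61 at T24. AT1G12010 read 4.05 and 4.07 at T0, and 12.84 and 10.67 on T24 arrays that lay far apart. AT2G05540, from 5.98 and 5.92 to 12.92 and 12.97, and AT5G39520, from 4.29 and 4.06 to 10.99 and 11.33, had arrays closer together. Differences of these 4 ran from 6.99 for AT5G39520 to 8.19 for PAP85. Ranked next below HIS1-3 were AT2G31945 (6.42), AT3G62950 (5.97), AT2G20670 (5.94), AT1G10140 (5.76) and AT4G27450 (5.57). The step from HIS1-3 to the next lower rank was thus smaller than the distance between the T24 replicates of AT2G31945, which was 1.47. The order of these neighbours is not fixed by so few arrays. The gene table gives none of the neighbours other than PAP85 a symbol.

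**Figure D1:**
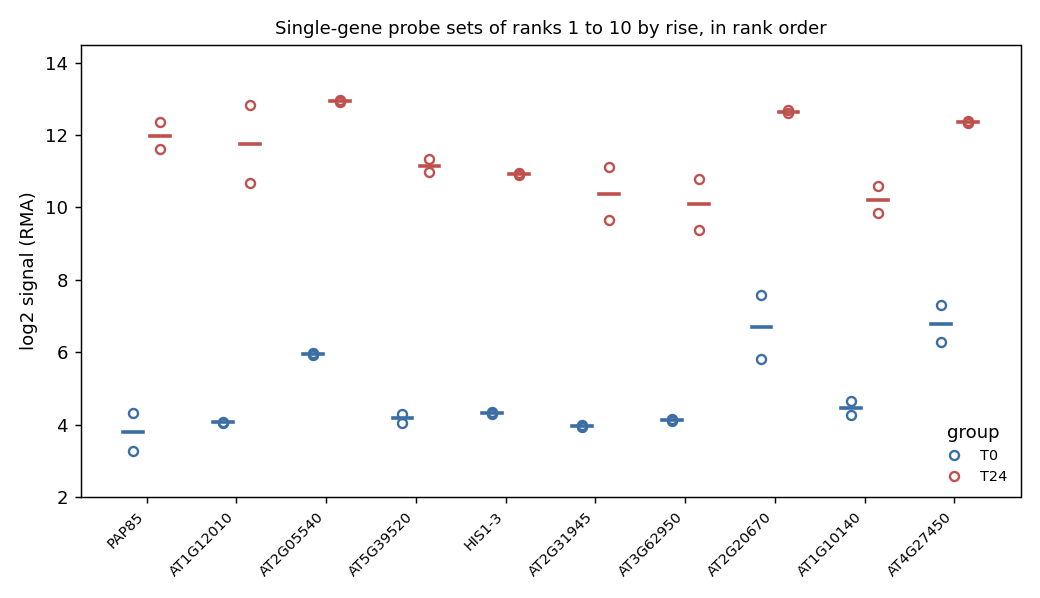
Log2 signal (RMA) of the single-gene probe sets at ranks 1 to 10 by rise, in rank order along the x axis. Open circles are single arrays (T0 blue, T24 red) and short lines are group means. HIS1-3, at rank 5, has T0 arrays at 4.35 and 4.30 and T24 arrays at 10.90 and 10.97, which nearly cover each other, while the T24 arrays of AT1G12010 stand 2.16 apart.

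Starting from a signal near the floor and ending at a high one was rare. On both T0 arrays, 5283 single-gene probe sets lay under 5, and 4 of them lay above 10 on both T24 arrays: PAP85, AT1G12010, AT5G39520 and HIS1-3. These limits were set after the values of HIS1-3 had been seen. Among the 2408 single-gene probe sets with a T0 mean within 0.5 of that of HIS1-3, the median change was 0.04 and the median size of change 0.22. Only 2 of the 2408 differed by as much as HIS1-3 or more. Conversely, 233 probe sets had a T24 mean within 0.5 of that of HIS1-3. Their median T0 mean was 9.65, and 1 of them had a lower T0 mean than HIS1-3.

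The replicates of HIS1-3 differed by 0.06 at T0 and by 0.07 at T24. The median replicate difference over the single-gene probe sets was 0.30 at T0 and 0.27 at T24. In each group, then, HIS1-3 was among the tighter probe sets: 11.4% had a smaller difference at T0 and 15.1% at T24. Taking the larger of both replicate differences for each probe set, 3.18% were tighter than HIS1-3, whose value was 0.0672 against a median of 0.424. The change of HIS1-3 was 98.4 times its larger replicate difference. Of the 4 probe sets with a larger rise, AT2G05540 alone had closer replicates, with a difference of 0.0551 in both groups. Of the 2408 probe sets of like T0 mean, 12.7% had closer T0 replicates than HIS1-3. Among the 233 of like T24 mean, 9.87% had closer T24 replicates. The closeness changed with the scaling: after quantile normalization the larger replicate difference of HIS1-3 was 0.254, and after centring each array on its median it was 0.16. With 2 arrays a group, a difference this small can also arise for a probe set of ordinary spread.

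**Figure D2:**
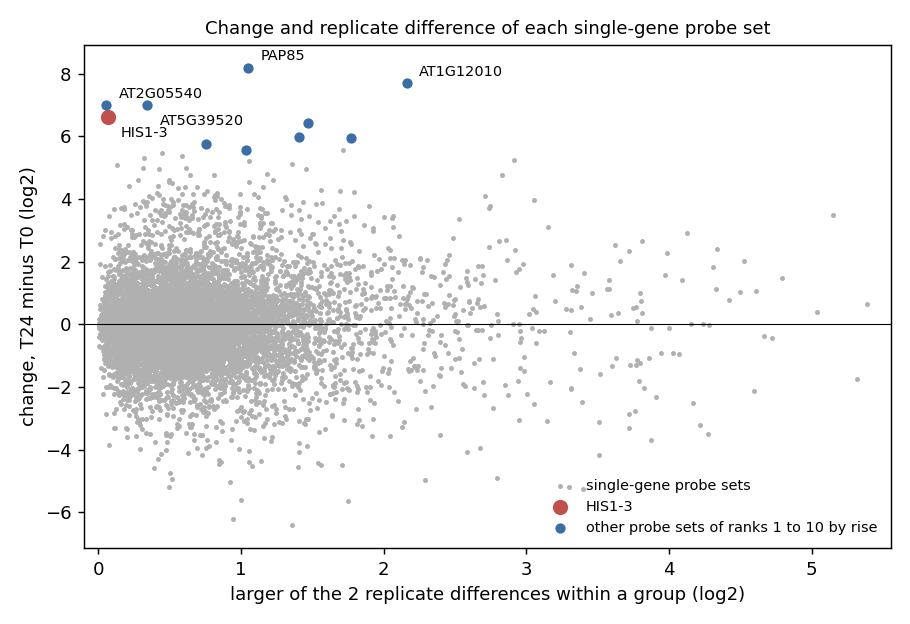
Change from T0 to T24 (log2, y axis) against the larger of the replicate differences within a group (log2, x axis) for 13513 single-gene probe sets. HIS1-3 (red) is at a change of 6.61 and a replicate difference of 0.0672, beside AT2G05540 at the left edge, while PAP85 and AT1G12010 changed more and had replicates 1.05 and 2.16 apart.

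The probe sets most like HIS1-3 in pattern were found by the root mean square difference from it over the 4 arrays, after each probe set's own mean had been subtracted. The nearest were AT2G05540 (0.196 on the log2 scale), AT5G39520 (0.221), AT1G10140 (0.527), AT2G31945 (0.552) and AT3G62950 (0.61). Without subtracting the mean, the nearest signals were those of AT5G39520 (0.224), AT1G10140 (0.602), BGLU45 (0.695), AT2G31945 (0.715) and AT1G19540 (0.773). AT5G39520, AT1G10140 and AT2G31945 were thus among the closest by both measures. BGLU45, a beta-glucosidase gene, read 4.38 and 4.78 at T0 and 9.81 and 10.25 at T24. With 2 groups of 2 arrays, likeness here says only that signals were low at T0, high at T24 and close between replicates.

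The first comparison beyond HIS1-3 asked whether its relatives also differed between the groups. The list held linker histone loci and loci of proteins with an H1-like globular domain, and 9 of its 15 genes had a single-gene probe set, HIS1-3 included. Of the other 8, 1 rose, 0 fell and 7 did not pass the test, which was an adjusted p under 0.05 in limma over all 22746 probe sets. Over all probe sets 13.2% passed, 6.39% upward and 6.84% downward. The median change of the 8 was 0.27, against 6.61 for HIS1-3 and 0.00 for the single-gene probe sets as a whole. Every call below needs all 4 arrays: without either T0 array, or without either T24 array, limma called 0 probe sets on the whole array, while 4888 to 5942 had an unadjusted p below 0.05.

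The gene that rose was AT1G17520, listed as TRB4, a protein with an H1-like globular domain. The loci listed as the linker histones H1.1 (AT1G06760) and H1.2 (AT2G30620) did not pass. AT1G17520 read 6.16 and 5.49 at T0 and 7.51 and 7.79 at T24. Its change was 1.82 ± 0.31 (SE), or 3.54-fold (limma adjusted p = 0.0379). HON4 (AT3G18035), whose synonym in the gene table is histone H1, read 9.22 and 9.96 at T0 and 11.18 and 11.78 at T24. Its change of 1.88 ± 0.38 (SE) narrowly missed the threshold (limma adjusted p = 0.0522). HON4 passed after median centring, with a mean filter at 5, with a variance trend and with the replicate number as a block. It did not pass after quantile normalization (limma adjusted p = 0.0891). Both T24 arrays were higher than both T0 arrays for AT1G17520 and for HON4.

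Smaller or less certain differences made up the rest of the list. AT2G30620 read 10.35 and 10.58 at T0 and 11.16 and 11.52 at T24, without overlap, and its change of 0.87 ± 0.23 (SE) did not pass (limma adjusted p = 0.086). Among the alternative settings it passed only with the replicate number as a block (limma adjusted p = 0.0318), and no label says that this number marks a batch. AT1G06760 read 11.08 and 10.78 at T0 against 11.52 and 10.82 at T24; the groups overlapped, with a change of 0.24 ± 0.32 (SE). AT1G72740 stood at 0.24 ± 0.19, AT1G54240 at 0.29 ± 0.46, AT1G54260 at 0.12 ± 0.49 and AT1G54230 at -0.37 ± 0.48 (SE). The change of HIS1-3 was larger than each of these by more than 4 on the log2 scale. No test of that difference is given, because HIS1-3 was chosen for its change.

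**Figure D3:**
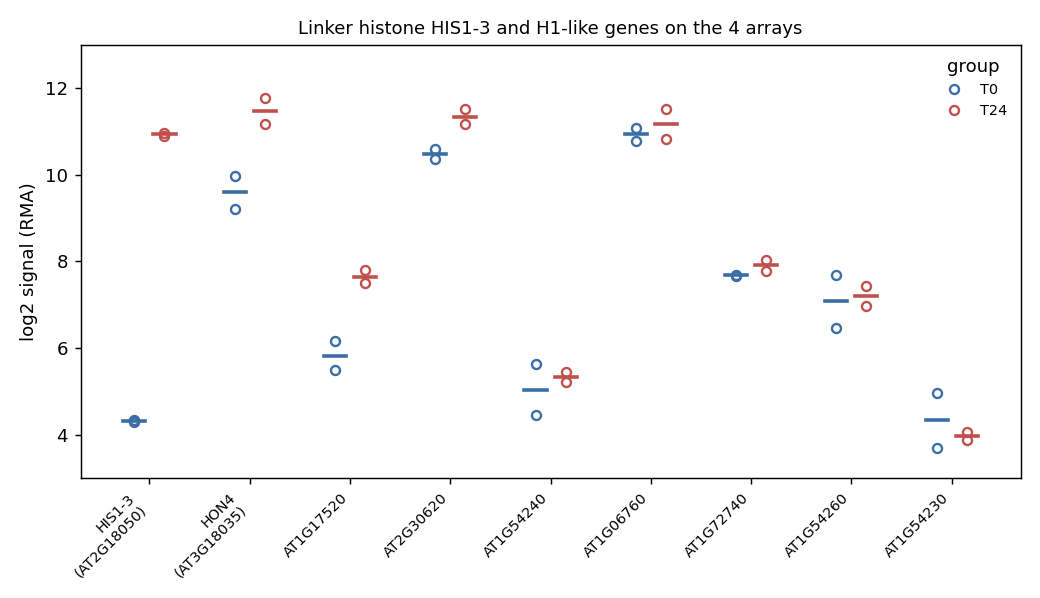
Log2 signal (RMA, y axis) of HIS1-3 and the 8 other measured genes of the list of linker histone and H1-like loci on each array, ordered by change. Open circles are arrays (T0 blue, T24 red) and short lines are means. HIS1-3 spans 4.33 to 10.93 between group means, while AT1G06760, at 10.93 and 11.17, hardly differs.

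Core histone genes that passed were mostly lower at T24, where HIS1-3 was higher. Of 47 core histone loci 14 were measured, all of them listed for H2B or H3, and 1 rose, 3 fell and 10 did not pass. Their median change was -0.79. By comparison, 6.39% of all probe sets were called higher and 6.84% lower. HTB2, a histone H2B gene, read 9.87 and 9.80 at T0 and 6.98 and 6.65 at T24, and fell by 3.02 ± 0.21 (SE; limma adjusted p = 0.0146). HTB1 fell by 2.42 ± 0.27 and AT2G37470 by 2.08 ± 0.31. The member that rose was MGH3 (AT1G19890), the male-gamete-specific histone H3, from 5.94 and 4.88 to 8.17 and 7.88, by 2.61 ± 0.42 (limma adjusted p = 0.035). H2B genes are close copies of each other, and how far their probe sets share signal was not tested.

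Among other chromatin proteins, the HMG-box list had 6 of 13 genes measured, with 1 higher, 1 lower and a median change of 0.75. Beside the 13.2% of all probe sets called in either direction, counts from so few genes say little. AT1G76110 rose by 1.45 ± 0.21 (limma adjusted p = 0.0284). 3xHMG-box2, a protein of mitotic chromosomes, read 9.74 and 10.46 at T0 and 5.79 and 6.10 at T24. Of 15 histone chaperone and assembly genes 2 were measured, with a median change of -0.76. ASF1B, a chaperone of histones H3 and H4, fell by 1.55 ± 0.28 (limma adjusted p = 0.0417), and SGA2 stood at 0.02 ± 0.19. Apart from HIS1-3, the largest rise among the 31 measured genes of these 4 lists was the 2.61 of MGH3.

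**Figure D4:**
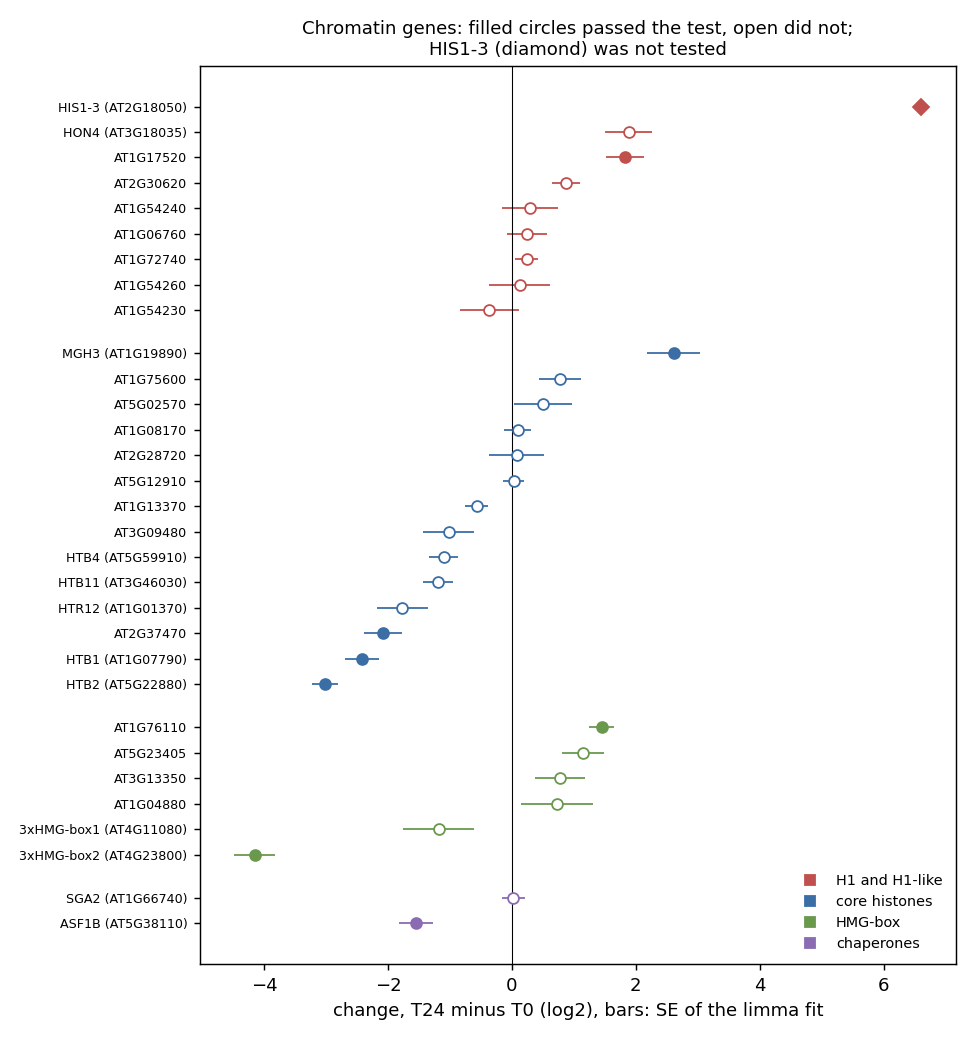
Change from T0 to T24 (log2, x axis) of the measured linker histone, core histone, HMG-box and histone chaperone genes, with the SE of the limma fit as bars. Filled circles passed an adjusted p of 0.05 and open circles did not; HIS1-3 (diamond, 6.61) was not tested. Core histones run from -3.02 (HTB2) to 2.61 (MGH3).

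Lists taken from words in the gene table's names and synonyms added few calls. MGH3, HTB2, HON4, HTR12 and the 3xHMG-box genes were counted here again, by the same probe sets as in the lists above. The only calls not already counted were CHR42 and, in the late embryogenesis list below, AT2G44060. Of 4 histone genes other than HIS1-3, MGH3 rose, HTB2 fell and 2 (HON4 and HTR12) did not pass (median change 0.06). Of 9 chromatin remodelling genes 1 rose, CHR42, from 4.83 and 5.14 to 6.26 and 6.48, by 1.39 ± 0.22 (limma adjusted p = 0.0332). That call was lost with a variance trend (adjusted p = 0.0535 in limma). The list's median change was -0.21, and with 6.39% of all probe sets called higher, 1 of 9 is near the background. Of 3 histone-modifying enzyme genes limma called 0, and 0 had an unadjusted p below 0.05. Their median change was -0.22, with the brightest, HDA15, at -0.22 ± 0.44. Over all probe sets 13.2% were called in either direction and 6.84% lower, so 0 of 3 says little. The HMG-box words matched the 3xHMG-box genes only (median change -2.67), where 3xHMG-box2 fell by 4.16 ± 0.33.

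HIS1-3 is known as a gene of the drought and abscisic acid response. Of 53 listed genes of that response 4 were measured, 0 rose and 2 fell, with a median change of -1.93. Of all probe sets 6.39% were called higher and 6.84% lower. Thus 0 rises of 4 is near the background, and 2 falls of 4 is a larger share, though of few genes. The 2 that fell, COR15A and COR15B, are related genes, and how far their probe sets share signal was not tested. They may therefore not count as separate observations. COR15A, a cold-regulated chloroplast protein gene, read 11.289 and 9.002 at T0 and 5.18 on both T24 arrays. It fell by 4.97 ± 0.82 (SE; limma adjusted p = 0.0364), and COR15B fell by 4.41 ± 0.60. COR47, a dehydrin gene, read 11.12 and 9.12 at T0 and 12.21 and 11.86 at T24, without overlap, and its change of 1.92 ± 0.73 did not pass (limma adjusted p = 0.182). LTI30, also of the dehydrins, read 7.66 and 4.29 at T0 and 4.83 and 8.22 at T24, with overlapping groups. The other listed genes are not analysed here, and 4 genes describe little of this response.

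Late embryogenesis abundant and dehydrin genes, found by words in the gene table, gave 7 measured genes, of which 0 rose and 1 fell, with a median change of 0.18. The words did not match COR47 and LTI30, the dehydrin genes of the drought list, so these counts do not cover the whole family. With 13.2% of all probe sets called, 1 of 7 is near the background. AT2G44060, whose synonym is LEA26, fell by 1.62 ± 0.30 (limma adjusted p = 0.0448), a call lost after median centring (adjusted p = 0.0614 in limma). At T0 the replicates of the drought list differed by 1.54 to 3.36 and those of the late embryogenesis list by 0.11 to 4.24, against 0.06 for HIS1-3. The signal levels were unlike: HIS1-3 was near the floor at T0, while the drought-list genes had T0 means of 5.97 to 10.97. The 2 late embryogenesis genes with T0 means under 5, AtLEA4-1 and LEA4-5, had T0 replicates 0.11 and 1.22 apart. At T24 the differences ran from 0.0053 (COR15A) to 3.39 and from 0.0323 (AT2G44060) to 4.09, so that both lists held a gene with closer T24 replicates than HIS1-3 (0.0672). LEA (AT2G21490), a dehydrin gene, read 9.41 and 5.17 at T0 and 9.34 and 5.25 at T24, and its replicate 1 arrays were the higher ones in both groups. For HIS1-3, replicate 1 was the higher at T0 and replicate 2 at T24, by the 0.06 and 0.07 given above.

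**Figure D5:**
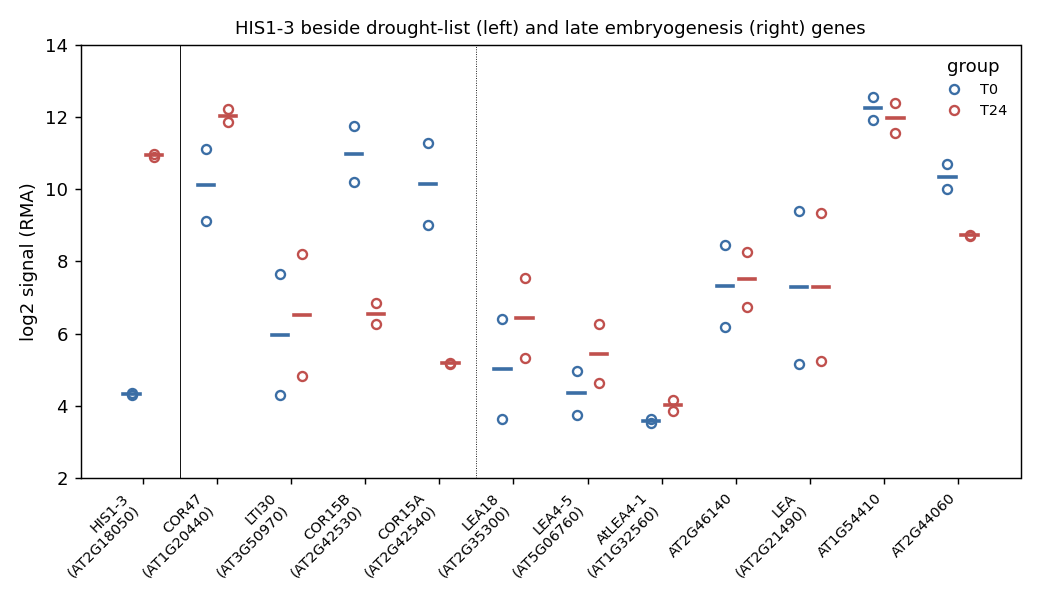
Log2 signal (RMA, y axis) of HIS1-3 (left of the solid line), the 4 drought-list genes (between the lines) and the 7 late embryogenesis and dehydrin genes (right of the dotted line) on each array. Open circles are arrays (T0 blue, T24 red) and short lines are means. The T0 arrays of HIS1-3, near the floor, differ by 0.06, and those of LEA, with a T0 mean of 7.29, by 4.24.

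HIS1-3 is also known to respond to low light, and of 24 listed genes of darkness and low light 3 were measured, with a median change of 1.37. AKINBETA1, a subunit gene of the energy-sensing kinase SnRK1, was the only one to pass, rising from 7.11 and 7.53 to 12.11 and 12.46, by 4.97 ± 0.26 (SE; limma adjusted p = 0.0143). EXO stood at 1.37 ± 0.56 and the transcription factor gene BZIP53 at 1.31 ± 0.36. All 3 had both T24 arrays above both T0 arrays, but groups did not overlap for 57.4% of all probe sets, so this count says little. The 1 call stands beside 6.39% of all probe sets called higher. The list was chosen with earlier results of these data known, so the call of AKINBETA1 is not an independent finding.

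Marker lists of the cell types in an inflorescence gave values to set beside HIS1-3, and their part in its change was not tested. For guard cells, where HIS1-3 is known to be present, 3 of 14 markers were measured, all of them regulators of the stomatal lineage, with a median change of -0.22, and limma called 0 of them, 1 having an unadjusted p below 0.05. Their summed log2 signal was 15.57 to 16.08 at T0 and 14.49 to 15.22 at T24. Such a sum of log2 values weighs dim and bright genes alike and is not a total of RNA. SPCH read 6.36 and 6.23 at T0 and 5.65 and 5.36 at T24, FMA had means of 5.90 and 5.68, and MUTE, at 3.63 and 3.67, was near the floor in both groups. Of 12 floral meristem and organ markers 5 were measured with a median change of -0.06 (above 0 for UFO, the middle gene, after median centring). Here limma called 0, and 0 had an unadjusted p below 0.05. With 13.2% of all probe sets called, 0 calls in lists this short say little. The summed log2 signal of the floral markers was 26.96 to 27.62 at T0 and 25.53 to 27.26 at T24. The brightest, SPT, stood at 0.84 ± 0.50, and CLV3 and UFO were under 5 in both groups.

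Among anther and pollen markers, 7 of 14 were measured, and 2 rose and 2 fell, with a median change of -0.24. For this list and the next, the shares over all probe sets were 6.39% called higher and 6.84% lower. The summed log2 signal of the 7 markers was 62.45 to 68.39 at T0 and 57.20 to 62.61 at T24. The pollen pectate lyase gene AT59 rose by 4.20 ± 0.23 and AT5G45880 by 2.24 ± 0.39, while of the tapetum genes SHT fell by 6.19 ± 0.39 and ATA27 fell by 4.50 ± 0.82. The 3 that did not pass were AMS (-0.24 ± 0.29), AT5G07230 (-1.95 ± 1.23) and SWEET8 (0.93 ± 0.30, SE), so anther genes did not fall uniformly. Of 19 embryo and seed markers 2 were measured, PAP85 and M10, and both rose, M10 by 0.90 ± 0.17 with signals under 5 in both groups. Their summed log2 signal was 7.16 to 8.16 at T0 and 16.38 to 17.13 at T24, and most of its difference came from PAP85 (8.19). These marker lists too were chosen with earlier results of these data known, so the rise of PAP85 is not an independent finding.

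Of the 5 protein-coding genes on each side of HIS1-3 on chromosome 2, 4 of the 10 had a single-gene probe set, and limma called 0 of these, 2 having an unadjusted p below 0.05. Over all 22746 probe sets 13.2% were called and 6907 had an unadjusted p below 0.05, so 0 of 4 says little. MSRA5, a methionine sulfoxide reductase gene 2 genes away, read 7.68 and 8.00 at T0 and 6.87 and 6.92 at T24, a change of -0.94 ± 0.21 (limma adjusted p = 0.0616). AT2G18070 stood at 0.22 ± 0.23, AT2G18090 at 0.57 ± 0.18 and AT2G18100 at -0.32 ± 0.27. The genes directly next to HIS1-3, PIN1AT and VND1, are not analysed here. This set of neighbours was chosen after the values of HIS1-3 had been seen.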

How the data were processed

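The deposited table holds the authors' log2 values of 22746 probe sets, made with RMA (version not given) per the submitters' processing notes, for 4 Affymetrix arrays. That the base is 2 follows from how RMA writes its values and from their range. There are no detection calls, and the mean was below 5 for 35.5% of probe sets. Other upstream steps are not given in the sources used here. Arrays correlated at 0.954 within T0, 0.961 within T24 and 0.839 to 0.873 between groups. Precision is limited by the number of arrays, and the p-values reflect only the spread among them, which may be technical.

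Groups and replicate numbers came from the titles. Names came from the platform annotation: 13513 had 1 gene, 503 several and 8730 none. Of the 13513, 13436 matched the RefSeq gene table of assembly TAIR10.1, used for names and gene order only. HIS1-3 had 1 probe set. For a gene with several, the brightest was used in the lists.

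T24 was compared with T0 with limma 3.58.1 (lmFit, eBayes) in R 4.3.3 over all probe sets, unfiltered and with no covariate, with Benjamini-Hochberg adjustment and calls at an adjusted p under 0.05. The fit was tested on simulated data. SE is limma's moderated standard error.

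HIS1-3 and the 10 lists of loci and 5 lists of words were chosen with earlier results of these data known. The lists of loci came from general knowledge, and loci without a symbol in the gene table are given by code. The named genes were HIS1-3, the measured linker histone list, up to 3 called genes per direction of each other list or the brightest where none was called, the 5 next to HIS1-3 on each side in rank (4 above), and the 5 nearest by each measure of pattern. Others, named to complete a short list, were chosen after their values were seen. Alternatives were quantile normalization, median centring, a filter at a mean of 5, the replicate number as a block, a variance trend, and leaving out each array.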

Additional observations from a re-analysis of the deposited data

How the results depend on the processing

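The change of HIS1-3 was 6.58 after quantile normalization and 6.76 after median centring, which moves every change by the difference between the group medians (median change over all probe sets 0.15). It ran from 6.57 to 6.64 with 1 array left out, its rank from 4 to 8, and its larger replicate difference from 0.0569 to 0.0672. That difference was 0.254 after quantile normalization and 0.16 after median centring. Calls over all probe sets were 3010, against 2764 to 3240 under both scalings, the filter and the trend, and 6528 under a replicate block (fitting the replicate number). Calls rising made up 48.3%, and 58.2% after median centring. Replicate differences at T0 and T24 correlated at 0.63 over probe sets, but there are only 2 pairs and no label says that a number marks a batch. Called genes of the linker histone list went from 1 to 2 with median centring, the filter or the trend and to 3 with the block, of core histones from 4 to 7 with the block, and of the lists of words from 5 to 8 with the filter or the block. Leaving out any 1 array gave 0 calls throughout, since few degrees of freedom remain and a lone array is assumed to vary like the other group. The other counts stayed within 1.5 times, and no called gene of the lists changed direction under the scalings; HDA7, UFO and AT5G12910, none of them called, did. Signals under 5 limit what can be said of HIS1-3 at T0.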
